A study of Mus musculus with 6 samples.

Results

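The genes described here bring fatty acids into the hepatocyte and activate them to acyl-CoA. Of 10 listed genes, 8 had a probe set whose platform annotation named that gene alone: Cd36, Slc27a1, Slc27a2, Slc27a4, Slc27a5, Mfsd2a, Acsl4 and Acsl5. They are 8 of the 22180 genes so named among 41345 probe sets. Acsl1 is not listed in the annotation, and the probe set of Acsl3 is shared with Utp14b, so neither was analysed here. Only Slc27a2 had more than 1 probe set, and the brighter of its 2 was used.

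Livers came from CREB-H KO mice (allele Creb3l3tm1.1Sad/J), 8 weeks old and on a normal diet, that received an intraperitoneal dose of liver-targeting adeno-associated virus 2 weeks before. Both groups therefore carried the knockout and a vector. The control group received AAV-GFP and the test group AAV-CREB-H-ΔTC, the active form of CREB-H, a transcription factor of the endoplasmic reticulum membrane. Each group held 3 mice, given as biological replicates, with 1 array per liver, and the sources used here do not name the promoter that drives the vector. The groups are called GFP and CREB-H below.

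Long-chain fatty acids enter hepatocytes with the help of CD36 and of the fatty acid transport proteins, which the Slc27a genes encode. They are then trapped by coupling to coenzyme A, a step carried out by the ACSL enzymes and by several of the transport proteins themselves. Acyl-CoA feeds oxidation, triglyceride and phospholipid synthesis, and bile acid conjugation. Many of these genes are known targets of the nuclear receptor PPARα, with which CREB-H is known to cooperate in the fasted liver.

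Signals are on a log2 scale, on which a difference of 1 is a doubling. Levels are compared only within a probe set, since probe sets differ in how well they bind. Array medians ran from 4.98 to 5.01, and precision is limited by the small number of arrays. Creb3l3 itself read 6.55, 5.93 and 6.40 with GFP and 6.73, 7.25 and 7.58 with CREB-H, so its groups stood apart in the direction of the labels (limma log2 fold change 0.89, SE 0.25, adjusted p = 0.647). Replicate 3 of each group carried Y-linked signal (Kdm5d, Uty and Eif2s3y averaged 7.83 and 7.67, against 3.15 to 3.39 on the other arrays), while the labels give no sex. Xist went the other way, at 4.43 and 3.75 on the replicate 3 arrays and 10.83 to 11.35 on the others. By these genes replicate 3 of each group read as male and the other arrays as female. In bulk liver, fewer cells of a type and less RNA per cell cannot be told apart. Marker means per array lay from 12.02 to 12.29 with GFP and 12.22 to 12.29 with CREB-H for hepatocytes (8 genes), the labelled tissue's main cell. For the other lists they were 7.83 to 9.03 and 8.34 to 9.22 for Kupffer cells (8 genes), 9.18 to 9.50 and 9.31 to 9.50 for endothelial cells (8), and 7.40 to 7.53 and 7.27 to 7.79 for stellate cells (8). Cholangiocyte markers (5 of 6 measured) lay from 4.46 to 4.70 and 4.72 to 4.77, adipocyte markers (4 of 6) from 4.61 to 4.72 and 4.68 to 4.89, and leukocyte markers (6) from 5.16 to 5.47 and 5.24 to 5.48.

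None of the 8 uptake and activation genes passed the comparison of CREB-H with GFP, which asked whether the active factor alters them in livers without it. In the limma fit, adjusted over all 41345 probe sets, their adjusted p ran from 0.808 for Acsl5 to 0.964 for Cd36, and 0.00484% of all probe sets passed. At an unadjusted p below 0.05 the count in this fit, with group alone as a term, was also 0 of 8, against 6.89% of all probe sets. The genes split evenly, 4 with a positive and 4 with a negative fold change (53.7% of all probe sets were negative), and their median was -0.023, beside -0.015 over all probe sets. Leaving out single arrays gave 3 to 5 negative. The groups did not overlap in 2 of the 8, Acsl5 upwards and Slc27a2 downwards, against 12.3% of probe sets in either direction, 5.23% upwards and 7.1% downwards.

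**Figure D1:**
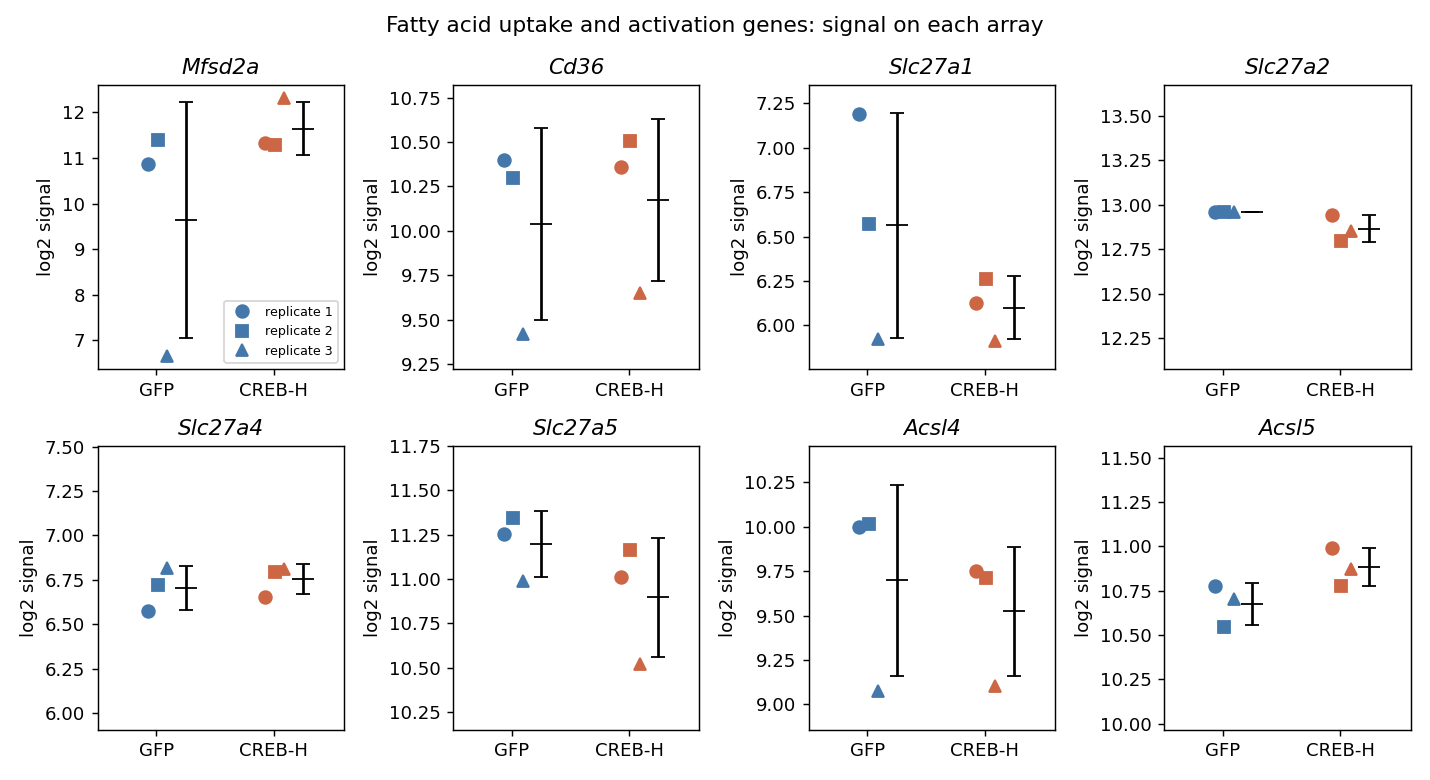
Log2 signal (vertical axes, each spanning at least 1.6) of the 8 genes on the 3 GFP and 3 CREB-H arrays; marker shapes give the replicate number, and bars the mean and SD. Mfsd2a reads 6.65 on GFP replicate 3 and at least 10.88 elsewhere, and replicate 3 is the lowest array of both groups for Cd36, Slc27a1, Slc27a5 and Acsl4.

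To show the DNA beside the genes on which the results turn, the 250 bases before the RefSeq start are printed for Mfsd2a (the widest spread), Cd36 (the receptor) and Slc27a2 (groups apart, downwards). They are from build GRCm38.p6, 5′ to 3′ on the strand of the gene. Capitals mark, on either strand, AGGTCA, the hexamer bound by PPAR and other nuclear receptors; CCACG, the core of elements bound by ATF6-type factors; and TGACG, the core of the cyclic AMP response element. CCACG and TGACG can overlap in a longer site.
Mfsd2a (chr4:122961189-122961438, minus strand): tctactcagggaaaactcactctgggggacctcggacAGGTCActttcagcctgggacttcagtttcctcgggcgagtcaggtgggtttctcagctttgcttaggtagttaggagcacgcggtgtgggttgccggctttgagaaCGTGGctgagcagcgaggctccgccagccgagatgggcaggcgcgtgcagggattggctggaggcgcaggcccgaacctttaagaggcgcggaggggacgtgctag
Cd36 (chr5:17835897-17836146, minus strand): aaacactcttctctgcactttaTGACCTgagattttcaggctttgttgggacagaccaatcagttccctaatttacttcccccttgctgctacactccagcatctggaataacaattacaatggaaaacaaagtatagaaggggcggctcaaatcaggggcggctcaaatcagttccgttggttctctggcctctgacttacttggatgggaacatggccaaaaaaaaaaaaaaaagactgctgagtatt
Slc27a2 (chr2:126552774-126553023, plus strand): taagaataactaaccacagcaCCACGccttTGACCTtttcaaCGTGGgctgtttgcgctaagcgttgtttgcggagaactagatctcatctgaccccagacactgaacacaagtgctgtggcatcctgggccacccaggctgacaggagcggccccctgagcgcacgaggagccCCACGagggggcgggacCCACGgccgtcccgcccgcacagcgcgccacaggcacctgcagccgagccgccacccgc
Slc27a2 holds 4 CCACG matches and 1 AGGTCA match, on the reverse strand as TGACCT 220 bases before the start. Mfsd2a holds 1 of each, with AGGTCA 213 and CCACG 106 bases before the start. Cd36 holds AGGTCA alone, at 228 bases, and lies at an internal start of the gene. RefSeq windows were present for 9 of the 10 listed genes (12 windows). AGGTCA occurred in 3 of these 9 genes, CCACG in 4 and TGACG in 1, Acsl4. Counted by window, they occurred in 3, 5 and 1 of the 12. Of all 32851 windows, 4607 held AGGTCA, 9311 (28.3%) held CCACG and 5836 (17.8%) held TGACG. The full repeat AGGTCANAGGTCA occurred in no window of these genes and in 0.0335% of all windows. Slc27a5 had no window, and that of Acsl5 held none of the motifs. These matches describe letters and are not sites.

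Mfsd2a (probe set 17429632, Entrez 76574) encodes a sodium-dependent transporter of lysophosphatidylcholine, the form in which docosahexaenoic acid enters the brain, and in liver it is known as a fasting-induced gene. Its signals were 10.88, 11.39 and 6.65 with GFP and 11.34, 11.28 and 12.32 with CREB-H. A single low array, GFP replicate 3, set the difference, and the groups overlapped. The means were 9.64 ± 2.60 and 11.65 ± 0.59 (SD, n = 3 per group). The log2 fold change was 2.01 (SE 1.18), a ratio of 4.02 with a 95% interval of 0.574 to 28.2, which includes no change (limma adjusted p = 0.814; exact two-sided permutation p = 0.3, where 0.1 is the smallest that 3 against 3 allow). It was 0.51 without GFP replicate 3, 0.17 on the 4 arrays that lack Y-linked signal, and 5.67 between the pair with it. The test of the difference between the last 2 values gave 5.50 (SE 0.35, adjusted p = 0.243), and it rests on 1 array per group in that pair.

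Mfsd2a was not alone in this on GFP replicate 3. On that array, 11 of 22180 genes read at least 2 log2 units below the lowest of the other 5 arrays: 9030619P08Rik, Cyp17a1, Cyp2b10, Cyp39a1, Igfbp1, Lepr, Lpin1, Mfsd2a, Mt1, Mt2 and Nipal1, listed after their values were seen. CREB-H replicate 3 had 6 such genes and the other 4 arrays 0. No other uptake or activation gene was among them. The genes closest to Mfsd2a in mean-centred profile over the 6 arrays were Nipal1, Mt2 and Cyp17a1, at root mean square differences of 0.41, 0.58 and 0.64 log2 units. Nipal1, a magnesium transporter gene, read 5.16 on GFP replicate 3 and 8.85 to 9.64 on the other arrays.

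Cd36 (probe set 17445715, Entrez 12491) encodes the scavenger receptor that facilitates uptake of long-chain fatty acids. It read 10.40, 10.30 and 9.42 with GFP and 10.36, 10.51 and 9.65 with CREB-H. Replicate 3 was the low array of each group, and the groups overlapped. The means were 10.04 ± 0.54 and 10.17 ± 0.46 (SD, n = 3 per group). The ratio was 1.10, with a 95% interval of 0.642 to 1.87 (log2 fold change 0.13, SE 0.33, limma adjusted p = 0.964). The sign turned without GFP replicate 3 (-0.18) or without CREB-H replicate 2 (-0.033), which leave the groups with unequal shares of replicate 3 arrays. Within the arrays that lack Y-linked signal the difference was 0.083, and between the pair with it 0.23. The genes with the closest profiles were Spred1, Lacc1 and Cyp2c68, at root mean square differences of 0.050, 0.057 and 0.069 log2 units.

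Among the transport proteins, Slc27a5 (probe set 17486589, Entrez 26459), the liver-specific FATP5 that also conjugates bile acids to coenzyme A, read 11.25, 11.35 and 10.99 with GFP. With CREB-H it read 11.01, 11.16 and 10.52, so the groups overlapped and the lowest was again replicate 3. Its log2 fold change was -0.30 (SE 0.19), a ratio of 0.814 with a 95% interval of 0.594 to 1.12 (limma adjusted p = 0.83). The difference shrank to -0.11 when CREB-H replicate 3 was left out, which leaves a replicate 3 array in the GFP group only. Within the arrays that lack Y-linked signal it was -0.21, and between the pair with it -0.47.

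Slc27a2 (probe set 17375701, Entrez 26458), encoding FATP2, which imports fatty acids and activates very long-chain ones, had nearly equal signals on the control arrays. Its GFP arrays read 12.960, 12.959 and 12.961 and its CREB-H arrays 12.945, 12.796 and 12.855, so every CREB-H array lay below every GFP array. It read near the top of the scale, where array maxima were 13.76 to 13.87, and whether differences are compressed there was not tested. The step was small, -0.094 (SE 0.095), a ratio of 0.937 with a 95% interval of 0.801 to 1.10 (limma adjusted p = 0.90; exact two-sided permutation p = 0.1, the smallest possible). The dimmer probe set (17391089, mean 6.01 with GFP and 6.04 with CREB-H) differed by 0.036 (SE 0.10), with the opposite sign.

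Slc27a1 (probe set 17502233, Entrez 26457), encoding FATP1, the transporter best known from muscle and fat, read 7.19, 6.57 and 5.93 with GFP. With CREB-H it read 6.12, 6.26 and 5.91, at the level of the lower GFP arrays. The spread within the GFP group (SD 0.63) was wider than the difference of -0.46 (SE 0.30; ratio 0.725, 95% interval 0.439 to 1.20; limma adjusted p = 0.834). Leaving out GFP replicate 1 gave -0.15, and leaving out GFP replicate 3 gave -0.78. Htra4, Hip1r and Klf6 had the closest profiles, at 0.11, 0.12 and 0.13 log2 units. Slc27a4 (probe set 17368904, Entrez 26569), encoding FATP4, the main transporter of the family in intestine, read 6.57, 6.72 and 6.82 with GFP and 6.66, 6.79 and 6.81 with CREB-H. These groups overlapped almost fully, at 0.049 (SE 0.11; ratio 1.03, 95% interval 0.862 to 1.24; limma adjusted p = 0.96).

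Of the long-chain acyl-CoA synthetases, Acsl5 (probe set 17360462, Entrez 433256), whose product in liver supplies acyl-CoA for triglyceride synthesis, read 10.78, 10.54 and 10.70 with GFP. With CREB-H it read 10.99, 10.78 and 10.88, where the lowest array (10.779) stood just above the highest GFP array (10.777). The log2 fold change was 0.21 (SE 0.11), a ratio of 1.15 with a 95% interval of 0.956 to 1.39, and did not pass (limma adjusted p = 0.808; exact two-sided permutation p = 0.1). It stayed between 0.14 and 0.26 with any 1 array left out, and the pair with Y-linked signal gave 0.17. Acsl4 (probe set 17545051, Entrez 50790), which prefers arachidonic acid, read 10.002, 10.018 and 9.08 with GFP and 9.75, 9.71 and 9.11 with CREB-H. Replicate 3 was low in both, and the groups overlapped (-0.18, SE 0.30; ratio 0.885, 95% interval 0.540 to 1.45; limma adjusted p = 0.944). The sign of Acsl4 turned without CREB-H replicate 3 (0.033), and without GFP replicate 3 the value was -0.49. Both leave a replicate 3 array in only 1 group. Within the arrays that lack Y-linked signal Acsl4 differed by -0.28, and between the pair with it by 0.028.

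**Figure D2:**
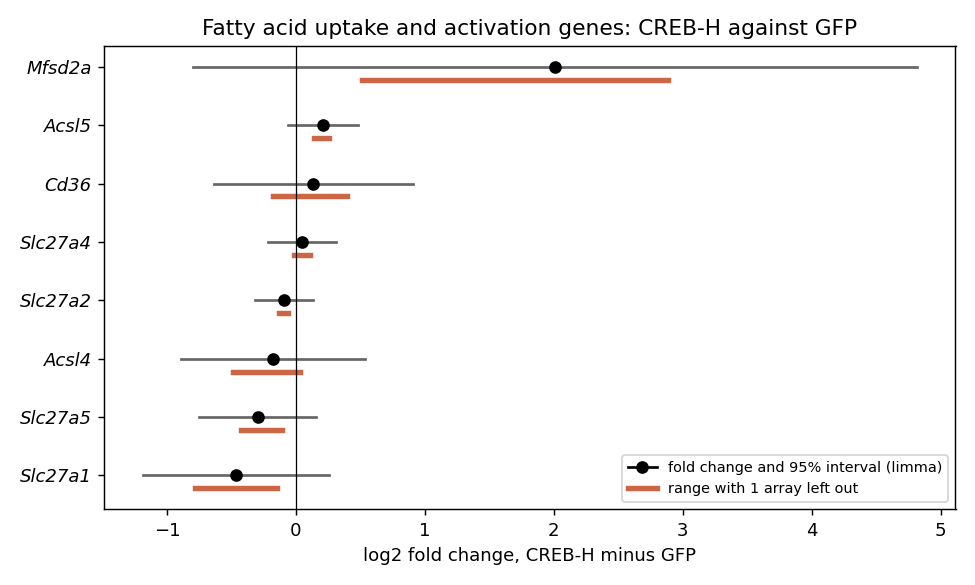
Log2 fold change of CREB-H against GFP (horizontal axis) for each gene, with its 95% limma interval in grey and, below it, the range of values with 1 of the 6 arrays left out. All 8 intervals include 0, and the interval of Mfsd2a (-0.80 to 4.82) is wider than any other.

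Replicate 3 was the lowest array in both groups for 4 of the 8 genes, against 13.9% of all probe sets, and the highest in both for 1, Slc27a4, against 16.1%. In a limma fit with group and Y-linked signal as terms, chosen after the data were seen, Cd36 differed by -0.86 (SE 0.11) between the 2 arrays with that signal and the 4 without. Acsl4 differed in this fit by -0.78 (SE 0.12), Slc27a1 by -0.62 (SE 0.23) and Slc27a5 by -0.44 (SE 0.12). The value of Slc27a1 depended on single arrays: it was -0.28 without GFP replicate 3 and -0.96 without CREB-H replicate 3. Without GFP replicate 3, its difference of CREB-H minus GFP was -0.78 in the fit with group alone. The unadjusted p of these 4 lay from 0.000263 to 0.0376, in a direction and at a level met by 4.73% of all probe sets. They are the same 4 genes in which replicate 3 was lowest in both groups, so these p values restate that order. None passed after adjustment (Cd36 adjusted p = 0.0951, Acsl4 0.131), while 57 probe sets did, 0.138% of all. Slc27a2, Slc27a4 and Acsl5 differed by -0.0074, 0.13 and 0.017 (SE 0.10 to 0.13), and Mfsd2a, low on only 1 of the pair, by -1.73 (SE 1.14). In mouse liver Cd36 is known to be higher in females. Y-linked signal and anything else that the 2 arrays share cannot be told apart.

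Cd36 and Acsl4 are also made by Kupffer cells and other macrophages, whose markers were low on the same arrays. The 8 Kupffer markers averaged 7.83 on GFP replicate 3 and 8.34 on CREB-H replicate 3, against 8.40 to 9.22 on the other arrays. All 8 were lowest on replicate 3 in both groups. All 8 also had positive fold changes with CREB-H (median 0.40, none called). Replicate 3 was also lowest in both groups for 5 of 8 stellate cell markers, whose means of 7.40 and 7.27 there were the lowest of each group. That order was seen too in 2 of 8 endothelial, 2 of 8 hepatocyte, 2 of 5 cholangiocyte, 2 of 4 adipocyte and 2 of 6 leukocyte markers. The part of these cells in the levels of Cd36 and Acsl4 was not tested.

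**Figure D3:**
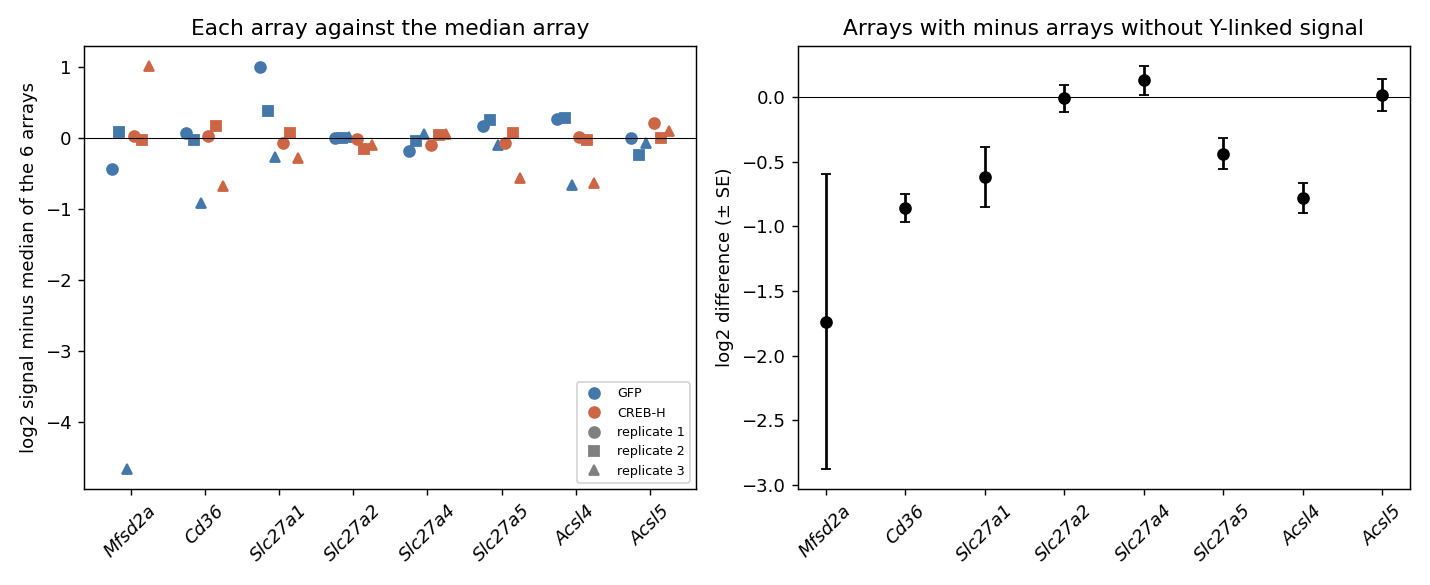
Left, log2 signal of each gene on each array minus the median of its 6 arrays; right, log2 difference between the 2 arrays with and the 4 arrays without Y-linked signal (points, with SE bars) from a fit with group as the other term. Cd36, Acsl4, Slc27a1 and Slc27a5 lie 0.44 to 0.86 below 0 on the right, while Slc27a2, Slc27a4 and Acsl5 lie within 0.13 of it.

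Other genes that make acyl-CoA, including the medium-chain ACSM, the acetate-activating ACSS and the remaining Slc27a and Acsl genes, gave no call in the same comparison. Of 15 measured of 16, 11 had negative and 4 positive fold changes (median -0.079), where 53.7% of all probe sets were negative. Many of the negative ones were dim. Acsm2, Acsm4, Acsbg1, Acsbg2, Acss1, Slc27a3 and Slc27a6, named after their values were seen, had group means below the array medians (4.98 to 5.01). None of the positive ones did. Acsm2 read 5.13, 4.72 and 4.81 with GFP and 4.58, 4.64 and 4.19 with CREB-H, without overlap (-0.42, SE 0.17, limma adjusted p = 0.72). It alone had an unadjusted p below 0.05, against 3.97% of probe sets that did so downwards. Acsl6 differed by -0.16 (SE 0.094) and was positive, 0.067, in the mean of its probe sets. Acsm5 differed by 0.22 (SE 0.19), and was 0.047 without GFP replicate 2.

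The list of fatty acid and acyl-CoA carriers also holds membrane and organelle proteins such as Cav1 and Scp2. Of 16, 10 had positive and 6 negative fold changes (median 0.028), where 53.7% of all probe sets were negative. Again none was called. Fabp2, the intestinal fatty acid-binding protein, stood far from the rest. It read 7.74, 7.24 and 7.503 with GFP and 10.39, 9.70 and 10.78 with CREB-H, at 2.79 (SE 0.28, limma adjusted p = 0.21). Fabp1, the abundant carrier of the hepatocyte, differed by -0.26 (SE 0.21). Cav1, which shapes membrane caveolae, and Fabp7, a brain-type carrier, differed by 0.39 (SE 0.19) and 0.40 (SE 0.26).

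Regulators of these genes mostly had positive fold changes with CREB-H, and none was called. Of 14 measured of 15, 11 had positive fold changes (median 0.13), where 53.7% of all probe sets were negative. An unadjusted p below 0.05 upwards was met by 4, against 2.93% of all probe sets. The list was chosen with earlier results of these data known, so these counts only describe it. Of the 3 with negative fold changes, Nr1i3 lay lowest, at -0.55 (SE 0.27), without overlap. Ppara read 9.21, 9.12 and 9.68 with GFP and 10.04, 9.73 and 10.12 with CREB-H, without overlap (0.63, SE 0.19, limma adjusted p = 0.647). Pparg, a receptor that drives Cd36 in fat and fatty liver, read 5.85, 5.92 and 6.85 against 7.60, 6.73 and 7.08, with overlap at GFP replicate 3 (0.93, SE 0.33, adjusted p = 0.686). Srebf1, which controls fatty acid synthesis, read 5.97, 6.34 and 6.863 against 7.22, 6.871 and 7.03 (0.65, SE 0.23, adjusted p = 0.692). Its lowest CREB-H array stood just above GFP replicate 3, so the groups barely missed overlap. The pair with Y-linked signal gave smaller differences, 0.44 for Ppara, 0.23 for Pparg and 0.17 for Srebf1. The fourth, Ppard, a further receptor of the family, differed by 0.37 (SE 0.14). Beside these regulators, 7 of the 8 uptake and activation genes differed by -0.46 to 0.21, and Mfsd2a by 2.01.

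**Figure D4:**
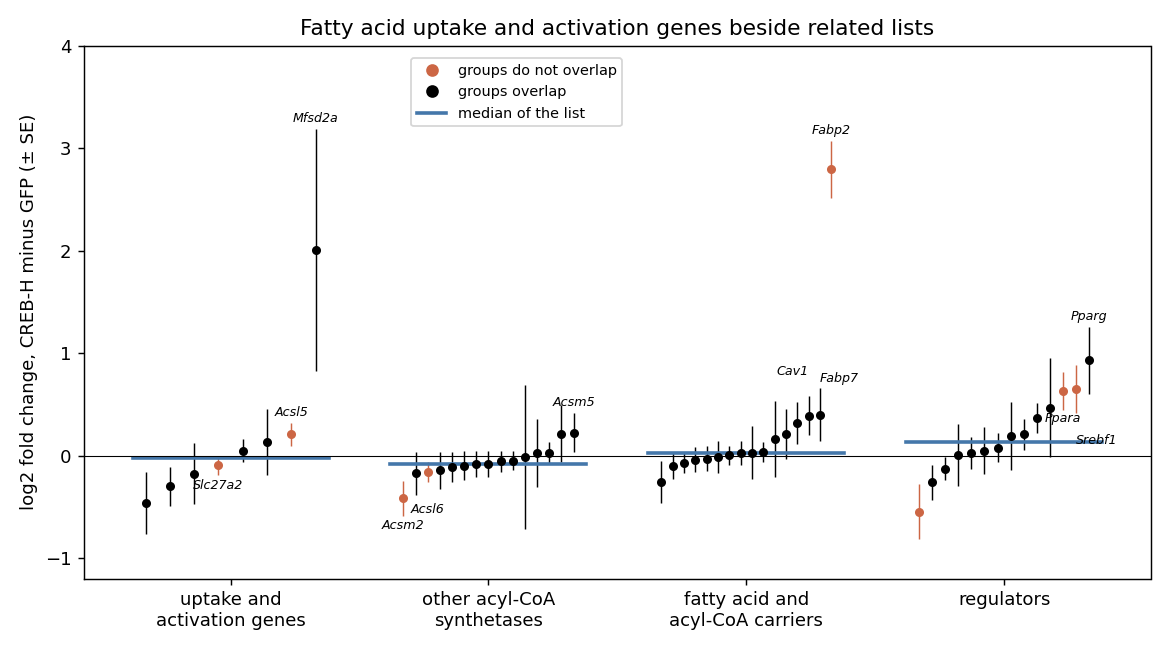
Log2 fold change of CREB-H against GFP with its SE for the 8 uptake and activation genes and for the measured genes of 3 related lists, ordered by value; blue lines are list medians (-0.023, -0.079, 0.028 and 0.13 from left to right). Orange points mark genes whose groups do not overlap, and Fabp2 at 2.79 and Mfsd2a at 2.01 stand above all others.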

How the data were processed

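Total RNA from 6 mouse livers was hybridised to 1 array each. For each array and probe set the authors deposited a log2 signal, made with Transcriptome Analysis Console software (per the submitters' processing notes). The sources used here give neither its version nor the normalization or filters. That the scale is log2 follows from the range (1.42 to 13.9) and near-equal quartiles. Gene symbols came from the platform annotation: 23521 probe sets had 1 symbol, 1814 several and 16010 none, and only the first kind was named. The brightest probe set per gene was used. The comparison of groups used lmFit and eBayes of limma 3.58.1 (R 4.3.3) with group alone as a term, two-sided, with p adjusted by the Benjamini-Hochberg method across the 41345 probe sets and called below 0.05. The fit was tested on simulated data with independent noise for each probe set. That simulation held no difference shared by the replicate 3 arrays, so it does not bear on how the fit behaves with one. Replicates are mice, per the labels.

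The gene members and lists were chosen with earlier results of these data known. Named were the 10 members, Creb3l3, Y-linked genes, the 3 genes of lowest p in each related list, and the 3 nearest profiles to each of the 3 members with the widest range. Xist, Fabp1, Ppard and the genes marked as such were named after their values were seen. Alternatives were quantile normalization, median centring, limma-trend (also robust), array weights, removal of the dimmest 25% or 50%, a replicate block, a Y-linked term (mean signal above 5), subsets by that signal, averaging a gene's probe sets, and each array left out. Promoter windows came from RefSeq (GRCm38.p6), matched by symbol. No scanner files were used here, so background was not examined and dim probe sets may understate differences. Figures used matplotlib 3.10.9 in Python 3.11.15.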

Additional observations from a re-analysis of the deposited data

How the results depend on the processing

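No uptake or activation gene was called under any of the 17 alternatives with a test, and their median log2 fold change stayed between -0.14 and 0.027, against a spread between arrays of 0.26 (SD). Signs turned in the pair of arrays with Y-linked signal for Slc27a4 (-0.0084), Acsl4 (0.028), Acsm5 (-0.093) and Fabp7 (-0.33), and for Acsl6 (0.067) with the mean of its probe sets. With 1 array left out, Cd36 ran from -0.18 to 0.39, Slc27a4 from -0.016 to 0.11 and Acsl4 from -0.49 to 0.033. The replicate block left the values as they were and called none of them (adjusted p = 0.243 for Fabp2, 0.751 for Mfsd2a). Same-numbered arrays deviated together with r of 0.079, 0.13 and 0.33 over probe sets. Replicate 1 of either group with replicate 2 of the other gave 0.12 and 0.16. Replicate 3 of either group with replicates 1 and 2 of the other gave -0.23 to -0.16. Only the replicate 3 arrays thus stood apart together, and the numbers were not taken as pairs. For the Y-linked term, Cd36 passed under limma-trend (adjusted p = 0.0426), its robust form (0.0444) and the filter on the dimmest 50% (0.0476), with 0.343 at most over 13 alternatives. Mfsd2a ran from -4.48 without CREB-H replicate 3, where it passed (adjusted p = 0.0285), to 1.01 without GFP replicate 3. Slc27a1 ran from -0.96 to -0.28, Slc27a5 from -0.57 to -0.31, Acsl4 from -0.93 to -0.63, Slc27a2 from -0.038 to 0.026 and Acsl5 from -0.037 to 0.066. The causes were not tested. Acsm2 had no value after removal of the dimmest 50%. With 3 arrays per group and group alone as a term, the 95% intervals were wide, -0.64 to 0.91 for Cd36 and -1.19 to 0.26 for Slc27a1. The width also depended on the terms of the fit. With a Y-linked term, the SE of the group difference was 0.10 for Cd36 and 0.22 for Slc27a1, against 0.33 and 0.30 without it. For Acsl4 and Slc27a5 it was 0.11 and 0.11, against 0.30 and 0.19. For Acsl5 and Slc27a2 it did not fall (0.12 and 0.098, against 0.11 and 0.095).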

Other observations

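Among the related genes, several differed between the replicate 3 arrays and the others, and 2 are described here, named after their values were seen. Acss3, a mitochondrial short-chain acyl-CoA synthetase, read 9.79, 9.07 and 7.33 with GFP and 8.95, 9.53 and 7.68 with CREB-H. Scp2, a peroxisomal thiolase and sterol carrier, was high where Acss3 was low, at 11.78, 11.74 and 12.85 with GFP and 12.04, 11.93 and 12.89 with CREB-H. In both genes replicate 3 of each group lay beyond all 4 other arrays, as it also did in others of these lists, such as Ahr and Hnf4a. CREB-H minus GFP was -0.010 (SE 0.70) for Acss3 and 0.16 (SE 0.37) for Scp2, and neither passed. Nr1i3, the xenobiotic receptor CAR and one of the listed regulators, read 10.41, 10.40 and 10.92 with GFP. With CREB-H it read 10.32, 10.30 and 9.47, without overlap. Its difference of -0.55 (SE 0.27, limma adjusted p = 0.778) took in the highest GFP and the lowest CREB-H array, both replicate 3.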
